A study of Rattus norvegicus with 12 samples.

Results

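Map1b and 9 other genes of the neuronal cytoskeleton and of neural adhesion were followed in N27 cells, an immortalised line from rat midbrain, with and without Vdac1, the gene of a voltage-dependent anion channel in the outer membrane of mitochondria. The 10 genes are Map1b, Map2, Mapt, Tubb3, Stmn1, Stmn2, Nefl, Dpysl3, Gap43 and Ncam1, and they were found as every array spot, controls aside, whose gene name was one of these, which gave 16 of the 45598 probes. The 10 are of the 36174 gene names on the array. They were chosen by the measured difference between knockout and wild type: Map1b was among the features called lower in the knockout, and the others were gathered around it with that comparison known. The differences between genotypes are therefore given for all 10 as descriptions with no test. The groups were 7 cultures labelled as the VDAC1 KO, in which the channel was removed with CRISPR, and 5 labelled WT, all of the N27 line, and the labels name no further treatment of either. The sources used here do not say whether the knockout is 1 clone or several, nor whether the cultures were independent, so p-values measure only the spread between these samples, which may be technical. Arrays are named by genotype and by the number in their label, KO 1 to KO 7, WT 3 and WT 5 to WT 8.

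Neurons build long processes on bundles of microtubules. The tubulins supply the polymer, the proteins of the MAP1, MAP2 and tau families bind along it and steady it, and stathmins bind free tubulin and favour its loss from the ends. Neurofilaments give axons their calibre, collapsin response mediators such as the product of Dpysl3 and the membrane protein of Gap43 act in growth cones, and the neural cell adhesion molecule of Ncam1 joins neighbouring membranes.

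A measured value here is the log2 of the background-subtracted spot signal minus the array's 75th percentile, so that 0 is a signal equal to that percentile. That percentile ranged from 120.1 to 691.8 between arrays, from 142.7 to 691.8 in the knockout and from 120.1 to 449.7 in the wild type, and the share of spots well above background from 42.3% to 53.8%. The number of arrays limits the precision. Vdac1, the targeted gene, lay between 1.2 and 2.68 in the knockout and between 3.07 and 3.61 in the wild type, so every knockout array was below every wild-type array, although the transcript was still measured.

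The label of a dopaminergic neuron was only partly borne out by marker genes. Of 11 pan-neuronal markers, Eno2 was well above background on all 12 arrays and 7 were well above background on 0 arrays, among them Syp, Snap25, Elavl3 and Elavl4. Of 11 dopaminergic markers, Th and Aldh1a1 were well above background on all 12 arrays, and Slc6a3, Ddc, Lmx1a, En1 and Foxa2 on 0. Slc18a2, Nr4a2, Pitx3 and Lmx1b lay between these. They were well above background on 6, 1, 1 and 3 of 7 knockout and on 3, 4, 0 and 1 of 5 wild-type arrays. Of 8 fibroblast and mesenchymal markers 5 (Col1a1, Fn1, Pdgfrb, Thy1 and S100a4) were well above background on every array. The lists for neural progenitors, astrocytes, oligodendrocytes and microglia had 1 such gene each, Nes, Gja1, Cnp and Cx3cr1. Signals of the 11 pan-neuronal markers, each taken relative to the 75th percentile on a linear scale, summed to between 1.28 and 1.89 in the knockout and between 1.15 and 1.77 in the wild type, and those of the 8 mesenchymal markers to between 15.7 and 33.9 and between 14.2 and 47.9. The part of these marker levels in the results below was not tested. Fewer cells that express a gene and less RNA per cell cannot be told apart in such bulk RNA.

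What the arrays could see of each gene is set by the probe. The letters below are those of 4 probes, taken from the array files, and are shown because 2 of them gave signal and 2 gave none. Mapt at base 1191 and Stmn1 at base 384 of their transcripts were measured, while Gap43 at base 831 and Nefl at base 1287 stayed at background. All 4 are 60 bases long and have at least 1 forward reading frame with no stop codon.
Mapt: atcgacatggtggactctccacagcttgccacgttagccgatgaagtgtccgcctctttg
Stmn1: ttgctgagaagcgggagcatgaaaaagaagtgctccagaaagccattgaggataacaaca
Gap43: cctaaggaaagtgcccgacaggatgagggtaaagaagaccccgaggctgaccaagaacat
Nefl: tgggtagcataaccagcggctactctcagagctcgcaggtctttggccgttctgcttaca
Their positions in the files, whose headers name build rn4, are chr10:93504770-93504829 for Mapt, chr5:153231088-153231147 for Stmn1, chr11:60083320-60083379 for Gap43 and chr15:47638898-47638957 for Nefl, each on the plus strand. The single Map1b probe lies at base 11672 of its transcript, at chr2:30415369-30415428 on the minus strand. These places were not checked against a genome, and exon or UTR annotation was not used here.

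For Map1b, Stmn1 and Tubb3, whose transcripts were measured, the table of RefSeq promoters (build GRCr8) holds an entry. The 250 bases before the start are shown with matches to short promoter motifs in capitals. The motifs searched, on both strands, were the GC box GGGCGG (in 30.5% of all 33469 promoters of this length), the TATA box TATAAA (12.9%), the E-box CAGCTG (12%), the cAMP response element TGACGTCA (1.59%) and the CCAAT box (34.0%).
Map1b: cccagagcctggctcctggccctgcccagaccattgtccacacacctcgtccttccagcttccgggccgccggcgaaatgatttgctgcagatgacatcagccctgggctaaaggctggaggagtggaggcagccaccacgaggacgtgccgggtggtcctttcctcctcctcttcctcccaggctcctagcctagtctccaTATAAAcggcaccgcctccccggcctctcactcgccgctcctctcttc
Stmn1: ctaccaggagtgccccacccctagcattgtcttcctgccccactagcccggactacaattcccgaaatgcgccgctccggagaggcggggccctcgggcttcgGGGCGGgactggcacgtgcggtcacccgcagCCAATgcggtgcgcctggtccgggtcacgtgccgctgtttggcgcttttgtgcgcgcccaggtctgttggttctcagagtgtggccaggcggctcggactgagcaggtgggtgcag
Tubb3: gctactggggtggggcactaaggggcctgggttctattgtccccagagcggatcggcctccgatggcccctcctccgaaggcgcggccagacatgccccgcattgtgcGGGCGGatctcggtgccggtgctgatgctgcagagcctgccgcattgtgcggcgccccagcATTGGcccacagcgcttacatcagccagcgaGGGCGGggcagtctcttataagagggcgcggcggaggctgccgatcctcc
These are chr2:32644472-32644721 on the minus strand, chr5:151964929-151965178 on the plus strand and chr19:68365437-68365686 on the plus strand. The Map1b stretch has 1 TATA box, 48 bases before the start, and no match to the other 4 motifs. The Stmn1 stretch has 1 GC box and 1 CCAAT box, and the Tubb3 stretch 2 GC boxes and 1 CCAAT box. G and C make up 63.6%, 67.6% and 68.0% of the 3 stretches, where the median promoter has 51.2%. Only the letters CAGCTG were searched as an E-box, so other forms of it are not marked or counted. A match is only a match of letters, and nothing about the binding of a factor was measured.

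Of the 10 genes 5 were measurable in these cells: Map1b, Mapt, Tubb3, Stmn1 and Ncam1. Their brightest probes passed the filter for testing, which asks for a signal well above background on 5 or more of the 12 arrays. Map2, Stmn2, Nefl, Dpysl3 and Gap43 did not pass it. In the fit over all 14742 features, limma called 1 of the 10 genes lower in the knockout, Map1b, and 0 higher (2 lower and 0 higher at unadjusted p under 0.05), where 1.09% of all features were called in either direction, 0.393% lower and 0.699% higher. Since the genes were chosen with this comparison in view, nothing is read from that count. All 5 measured genes had a negative difference, with a median of -0.75, where the median of all features was 0.04, and 44.8% of features were negative. The choice of genes used this comparison, so nothing is read from the shared sign either. That median is the value of Mapt (SE 0.62), whose difference was 0.57 over the arrays numbered 5 to 8 alone.

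Map1b encodes a large microtubule-associated protein prominent in growing axons, and its signal was lower on every knockout array than on every wild-type array. In order of their numbers, the knockout arrays stood at -1.45, -1.82, -1.43, -1.32, -0.85, -1.06 and -1.27. WT 3 stood at -0.65, and the other wild-type arrays, WT 5 to WT 8, at 0.57, 0.39, -0.24 and 0.32. The groups did not overlap, as in 2.73% of all features, with the smallest gap between KO 5 and WT 3. The means were -1.31 ± 0.31 (SD, n = 7) and 0.08 ± 0.51 (SD, n = 5), a log2 difference of -1.39 (SE 0.22), or 2.62-fold lower in the knockout.

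The Map1b probe was printed 10 times on each array and was well above background in 119 of the 120 spots. The SD of the log2 signal between its spots was 0.05 to 0.22 on 11 arrays and 1.23 on WT 7, where 1 spot was not well above background. With the median over spots WT 7 stood at 0.23 in place of -0.24, and the difference between genotypes was -1.48. A slide block gave -1.37, and slides 1, 2 and 3 taken alone gave -0.99, -2.14 and -1.16, of which slide 2 holds 1 wild-type array, WT 5. Without KO 2, WT 5, WT 6 or WT 8 the Map1b difference was -1.31, -1.27, -1.31 or -1.33 and was no longer among limma's calls, and without any 1 of the 12 arrays it stayed between -1.57 and -1.27. All of its 24 alternative values were negative.

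**Figure D1:**
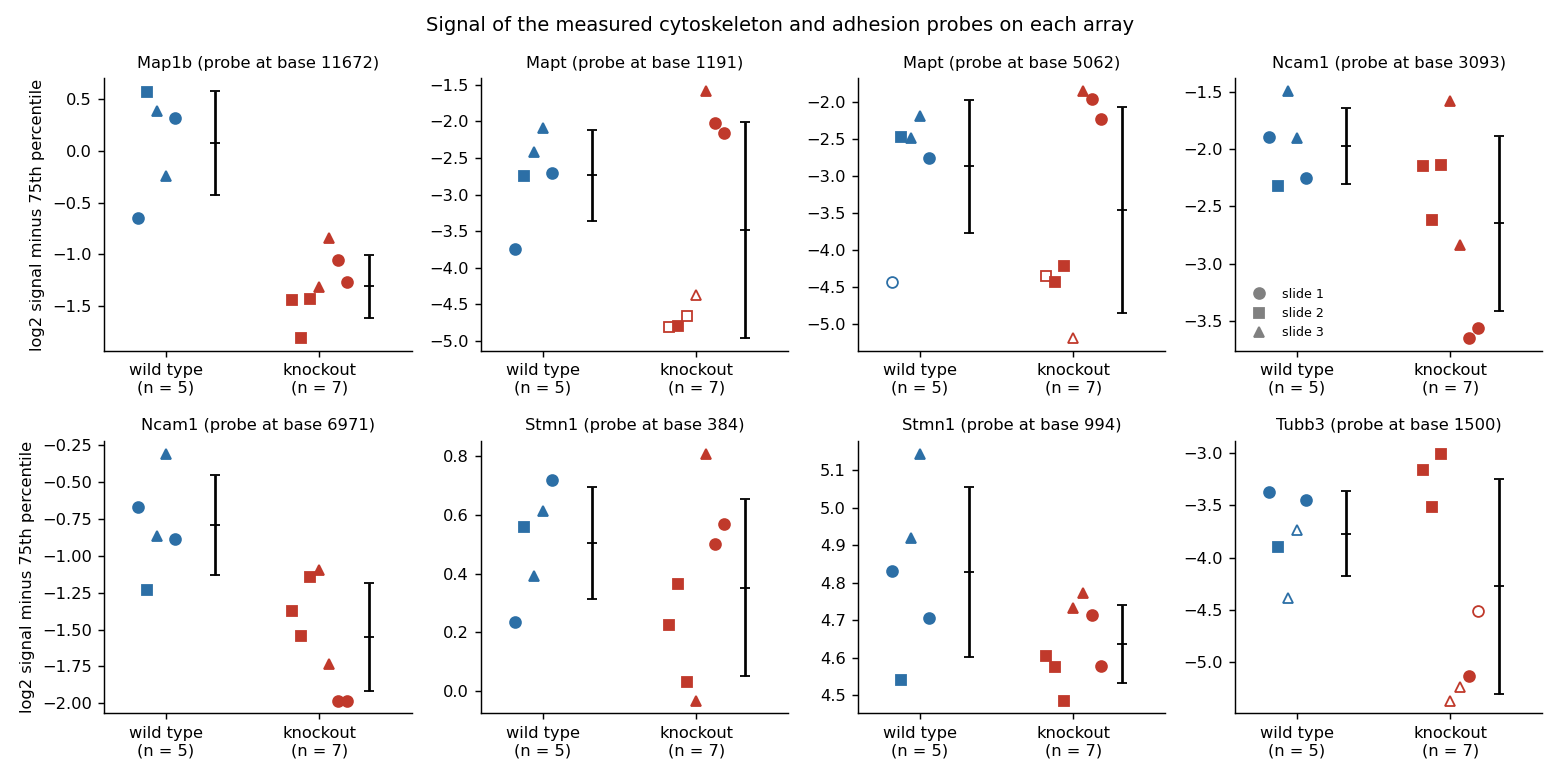
Each panel plots 1 probe, with the log2 signal minus the array's 75th percentile on the vertical axis, wild-type arrays in blue and knockout arrays in red, the slide as the shape of the point, open points where the probe was not well above background, and the mean with its SD in black beside each group. Map1b separates the genotypes completely, while the Mapt knockout arrays fall into a low set of 4 and a high set of 3.

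Mapt encodes tau, the microtubule-associated protein of axons. Its signal followed the sample numbers of the labels more than the genotype. At base 1191 the knockout arrays, in order of their numbers, stood at -4.81, -4.80, -4.66, -4.38, -1.58, -2.02 and -2.16. WT 3 stood at -3.74 and WT 5 to WT 8 at -2.74, -2.41, -2.09 and -2.70. The arrays numbered 1 to 4 of both genotypes were thus the low ones and those numbered 5 to 8 the high ones. The low arrays lay on all 3 slides, and what sets the numbers apart was not tested. The split into these numbers was placed after earlier results had shown arrays to separate this way, and it carries no test here. KO 5 to KO 7 exceeded KO 1 to KO 4 by 2.74, or 6.68-fold, with means of -1.92 ± 0.30 (SD, n = 3) and -4.66 ± 0.20 (SD, n = 4). Of KO 1 to KO 4, only KO 2 was well above background, so the lower set lies near the limit of detection and the fold rests in part on signal at background.

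The other Mapt probe, at base 5062, separated the arrays the same way. Its knockout values, in the same order, were -4.34, -4.44, -4.21, -5.19, -1.85, -1.96 and -2.23, with -4.43 for WT 3 and values between -2.75 and -2.20 for WT 5 to WT 8. Over the 12 arrays the signals of both probes correlated with a Pearson r of 0.94, a description of the same RNA read at 2 places. The difference between genotypes was -0.75 (SE 0.62) at base 1191 and -0.59 (SE 0.62) at base 5062 and lay within the spread of the arrays. In numbers 5 to 8 alone these differences were 0.57 and 0.46. Within slides 1, 2 and 3 they were 1.13, -2.01 and -0.73 and then 1.49, -1.85 and -1.18. Slide 2 holds KO 1 to KO 3 and WT 5, so genotype there cannot be told apart from low against high numbers. Over all arrays a slide block gave -0.40 and -0.39, and normexp background correction -0.26 and -0.24.

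Tubb3 encodes the class III beta-tubulin of neurons. It was dim, well above background on 4 of 7 knockout and 3 of 5 wild-type arrays. KO 1 to KO 7 stood at -3.16, -3.51, -3.00, -5.37, -5.24, -5.13 and -4.51. WT 3 stood at -3.37 and WT 5 to WT 8 at -3.89, -4.39, -3.74 and -3.45. KO 1 to KO 3 lay above or within the wild-type range and the other 4 knockout arrays below it, so the groups overlapped. The difference was -0.51 (SE 0.43), and it was -1.41, 0.67 and -1.24 within slides 1, 2 and 3. In numbers 5 to 8 alone it was -1.09, with a slide block -0.78 and with normexp background correction -0.20.

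Stmn1 encodes stathmin, which sequesters tubulin dimers, and both of its probes were well above background on all 12 arrays. At base 994 the knockout had a lowest value of 4.49, a median of 4.61 and a highest of 4.77, and WT 3 and WT 5 to WT 8 stood at 4.83, 4.54, 4.92, 5.14 and 4.71. At base 384 the knockout ran from -0.03 through a median of 0.36 to 0.81, and the wild type stood at 0.23, 0.56, 0.39, 0.61 and 0.72 in the same order. The groups overlapped at both probes. The differences were -0.19 (SE 0.13) and -0.15 (SE 0.16), with the SD between arrays up to 0.23 at base 994 and up to 0.30 at base 384. At base 994 quantile normalization gave a difference of -0.41 and the deposited table -0.35. The probes correlated weakly over the 12 arrays (Pearson r 0.27), and the knockout arrays numbered 5 to 7 exceeded those numbered 1 to 4 without overlap at base 384 (by 0.48) and with overlap at base 994 (by 0.09). Within slides 1, 2 and 3 the difference between genotypes was -0.12, 0.01 and -0.28 at base 994, and 0.06, -0.35 and -0.11 at base 384.

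Ncam1 encodes the neural cell adhesion molecule of the immunoglobulin superfamily. At its brightest probe, at base 6971, KO 1 to KO 7 stood at -1.37, -1.54, -1.15, -1.10, -1.73, -1.99 and -1.98. WT 3 stood at -0.67 and WT 5 to WT 8 at -1.23, -0.87, -0.31 and -0.89. Of the 7 knockout arrays 5 lay below the lowest wild-type array, and KO 3 and KO 4 lay above that array alone. The difference was -0.76 (SE 0.20), or 1.69-fold lower, and it was -1.20, -0.13 and -0.83 within slides 1, 2 and 3.

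The Ncam1 probe at base 3093 differed by -0.68 (SE 0.33), with values from -3.65 to -1.59 in the knockout and from -2.33 to -1.49 in the wild type, and within slides by -1.54, 0.02 and -0.51. With normexp background correction the difference was -0.35 there and -0.50 at base 6971. KO 5 to KO 7 were the lowest arrays at both probes. They lay below KO 1 to KO 4 by 1.53-fold at base 6971 and 2.34-fold at base 3093, the opposite order to that of Mapt. Against WT 5 to WT 8 alone, KO 5 to KO 7 differed by -1.08 and -1.36. The third Ncam1 probe, at base 4407 of the predicted transcript that also carries base 6971, was well above background on 0 arrays, so the probes of this gene disagree on whether it can be measured.

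**Figure D2:**
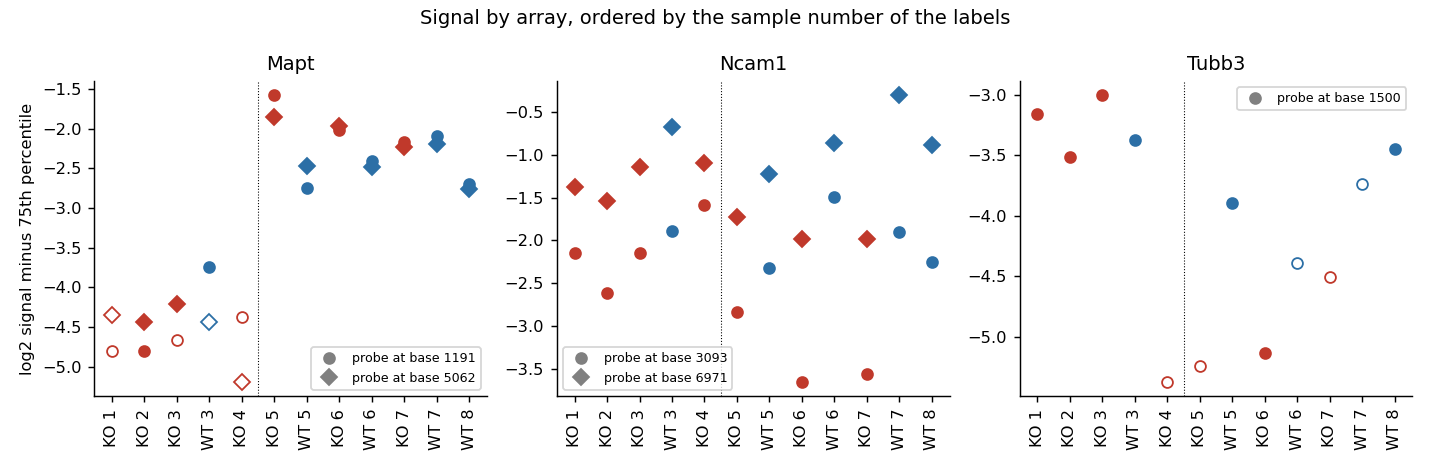
The log2 signal minus the 75th percentile is plotted for Mapt, Ncam1 and Tubb3 on each array in the order of the sample numbers, knockout in red and wild type in blue, with open points where the probe was not well above background and a dotted line between numbers 4 and 5. Both Mapt probes sit at or below -3.74 left of the line and at or above -2.75 right of it, and the lowest Ncam1 values are those of KO 5 to KO 7.

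The 5 genes that were not measured, with their probes, gave no measurable signal at the sensitivity of the array. Map2, the microtubule-associated protein of dendrites, had 3 probes, and Stmn2, a stathmin of neurons, Nefl, the light neurofilament chain, Dpysl3 and Gap43 had 1 each. With the third Ncam1 probe, these 8 probes were well above background on 0 of the 12 arrays. Their values ran from -7.81 to -5.16 with a median of -6.57 and mirrored the array's brightness (Pearson r of -0.98 between their median on an array and the log2 of its 75th percentile, over 12 arrays), so they hold no order between arrays or genotypes and no fold is given. The Gap43 probe was printed 10 times on each array, and on KO 7, which had its highest value (-5.16), 2 of the 10 spots were well above background.

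**Figure D3:**
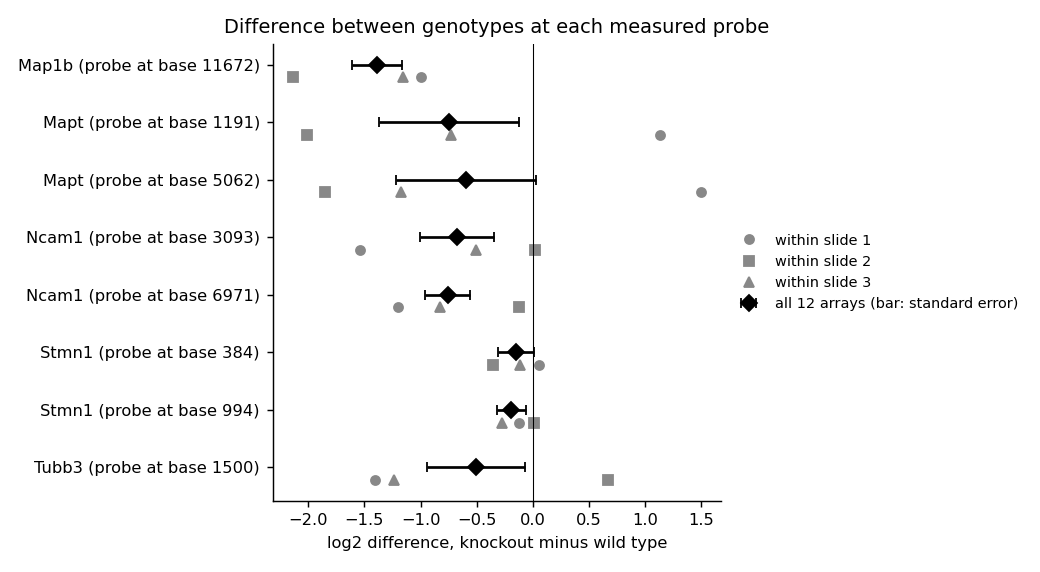
The horizontal axis gives the log2 difference, knockout minus wild type, for each of the 8 probes that were well above background on at least 5 arrays, as a black diamond with its standard error over all 12 arrays and as grey points within each slide. The Map1b points lie between -2.14 and -0.99 on every slide. The points of Mapt, Tubb3, both Stmn1 probes and Ncam1 at base 3093 fall on both sides of 0.

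The measured genes did not share a single pattern over the arrays. As a description over the 12 arrays, which share slides and genotype, the Pearson r with Map1b was 0.55 for Mapt, 0.49 for Ncam1, 0.40 for Stmn1 and 0.03 for Tubb3. After the mean of each genotype was subtracted, it was 0.61, -0.56, -0.17 and -0.55. Mapt went with Map1b within the genotypes, and Tubb3 and Ncam1 went against it. The split by sample number had the same signs. KO 5 to KO 7 minus KO 1 to KO 4 was 0.45 for Map1b, 2.74 for Mapt, -1.2 for Tubb3 and -0.61 for Ncam1. For Stmn1 at base 994 it was 0.09, the other sign to its r. Whether the genes vary together apart from that split was not tested. Between Mapt and Tubb3 the r after subtraction was -0.69, although KO 4 was among the low arrays for Mapt and had the lowest Tubb3 of all. Mapt on 3 arrays and Tubb3 on 5 were not well above background.

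Among 8047 named genes that were well above background on all 12 arrays, the pattern most like that of Map1b was that of Cstf2, a factor of mRNA 3' end cleavage, with a Pearson r of 0.94 over the 12 arrays. Rai14, an actin-binding protein, followed with 0.93, then the growth arrest gene Gadd45a with 0.93, the kinesin heavy chain gene Kif5b with 0.93 and the stress-induced regulator Nupr1 with 0.92. All of them were lower in the knockout, which by itself raises r. After the genotype means were subtracted r was 0.79, 0.77, 0.72, 0.62 and 0.62 in the same order. WT 3 was the lowest wild-type array for Cstf2, Rai14, Gadd45a and Nupr1, as it was for Map1b, and the second lowest for Kif5b, after WT 7.

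**Figure D4:**
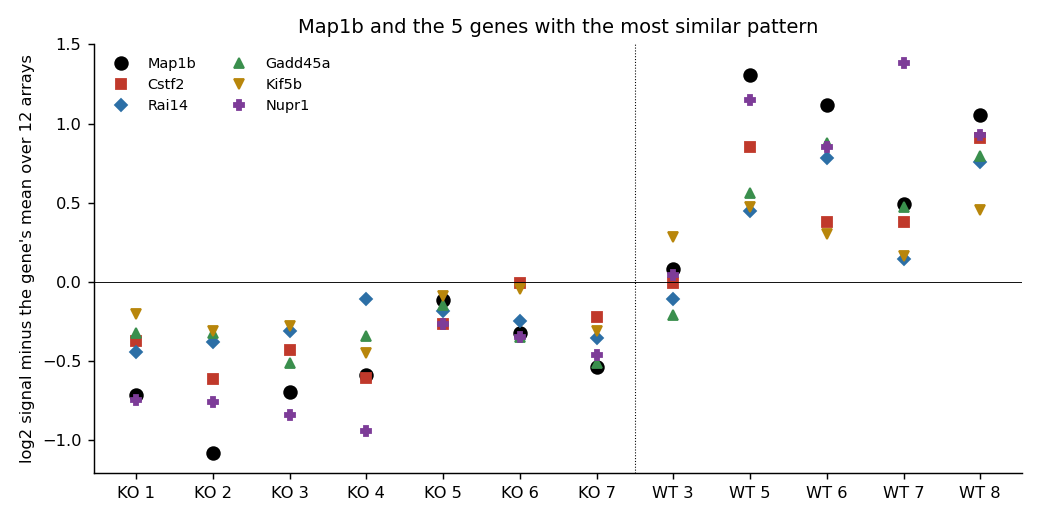
The vertical axis gives the log2 signal minus each gene's mean over the 12 arrays, for Map1b in black and for the 5 genes ranked most like it in colour, with the knockout arrays left of the dotted line and the wild-type arrays right of it. Of the wild-type arrays WT 3 lies nearest to the knockout arrays for Map1b, and KO 2 lies lowest of all.

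Related genes outside the 10 were taken from 10 lists by textbook role: microtubule-associated proteins, tubulins with their folding factors, enzymes that modify or sever microtubules, stathmins and collapsin response mediators, intermediate filaments, the growth cone and membrane skeleton, neural adhesion with polysialylation, kinases and phosphatases acting on microtubule-associated proteins, microtubule motors, and regulators of neuronal transcripts. Of 168 genes listed 159 were on the array and 109 were tested. Limma called 2 of the 109 lower and 0 higher in the knockout (adjusted p under 0.05 over all features, with 12 lower and 6 higher at unadjusted p under 0.05), that is 1.83% against the 1.09% of all features. The median difference of the 109 was 0.01. It was -0.01 in the fit with a slide block, and on slides 1, 2 and 3 taken alone -0.14, 0.08 and -0.03.

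Kif5b, the ubiquitous heavy chain of the motor that carries cargo, mitochondria included, towards microtubule plus ends, fell by 0.57 on the log2 scale (SE 0.12, limma adjusted p = 0.0408). The knockout ran from 1.51 through a median of 1.68 to 1.91, and WT 3 and WT 5 to WT 8 stood at 2.24, 2.43, 2.26, 2.12 and 2.41. Every knockout array was below every wild-type array. The Kif5b difference was -0.58 with a slide block, or -0.54, -0.74 and -0.50 within slides 1, 2 and 3. Its call held in limma without KO 5 or without WT 3 and was lost without any other 1 array (adjusted p up to 0.124), with adjusted p between 0.0195 and 0.887 for its 27 alternatives. Of the other 12 motor genes tested limma called 0 (3 lower and 1 higher at unadjusted p under 0.05).

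Sox4, a transcription factor of neural and other progenitors, fell by 0.67 (SE 0.13, limma adjusted p = 0.0398). The knockout ran from 1.63 through a median of 1.80 to 2.03, and WT 3 and WT 5 to WT 8 stood at 2.22, 2.49, 2.54, 2.30 and 2.73, again with no overlap. The slide block gave a Sox4 difference of -0.71, and slides 1, 2 and 3 taken alone gave -0.75, -0.57 and -0.76. Its call held without KO 5 or without WT 3 and was lost without any other 1 array (adjusted p up to 0.12), with adjusted p from 0.0134 to 0.887 over 27 alternatives. The other 11 regulators tested gave 0 limma calls (2 lower and 0 higher at unadjusted p under 0.05).

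In the other 8 lists limma called 0 genes in the fit over all features, with 12 arrays and no block. The gene with the smallest p in each is given with its difference and its limma adjusted p. Among 16 microtubule-associated proteins (3 higher and 1 lower at unadjusted p under 0.05) it was Dclk1, a doublecortin-like kinase, at -0.49 (adjusted p = 0.104), and with a slide block it was called lower, at -0.52 (adjusted p = 0.0403), as it was without WT 3 (-0.57, adjusted p = 0.0399). Among 16 tubulins and folding factors (0 and 0) it was the epsilon-tubulin gene Tube1 at 0.45 (adjusted p = 0.335), with 0.74, -0.11 and 0.73 within slides 1, 2 and 3. Among 13 modifying and severing enzymes (1 and 0) it was Vash1, which removes the last tyrosine of alpha-tubulin, at 0.71 (adjusted p = 0.187), with 1.40, 0.42 and 0.59 within the slides. Of the stathmins and collapsin response mediators only Dpysl2 was tested, at 0.32 (adjusted p = 0.448), and its sign turned between slides, with -0.24, 0.67 and 0.48. Stmn3, Stmn4, Crmp1, Dpysl4 and Dpysl5 did not pass the filter.

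Vim, the vimentin gene, led 7 intermediate filament genes (0 and 1) at -0.52 (adjusted p = 0.294), while Nefm, Nefh, Ina, Prph and Gfap did not pass the filter. The spectrin gene Sptbn1 led 11 genes of the growth cone and membrane skeleton (0 and 1) at -0.50 (adjusted p = 0.257). Cadm1, an adhesion molecule of synapses and epithelia, led 7 adhesion genes (0 and 1) at -1.43 (SE 0.35, adjusted p = 0.0661), from -1.69 ± 0.44 (SD, n = 5) in the wild type to -3.13 ± 0.77 (SD, n = 7). Within slides 1, 2 and 3 the Cadm1 difference was -0.39, -1.85 and -1.60, and without WT 3 it was -1.58 and was called (limma adjusted p = 0.0338). Over all arrays Cadm1 was also called lower when only features well above background on every array were tested. With every probe as its own feature, another Cadm1 probe was called lower, and the probe given here was not. The phosphatase subunit gene Ppp2ca led 13 kinase and phosphatase genes (1 and 1) at 0.29 (adjusted p = 0.232). Leaving aside the list with 1 gene, the list medians lay between -0.10 and 0.10 over all arrays and between -0.15 and 0.11 in the fit with a slide block. Within slides 1, 2 and 3 they ran from -0.41 to 0.04, from -0.18 to 0.37 and from -0.26 to 0.15.

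**Figure D5:**
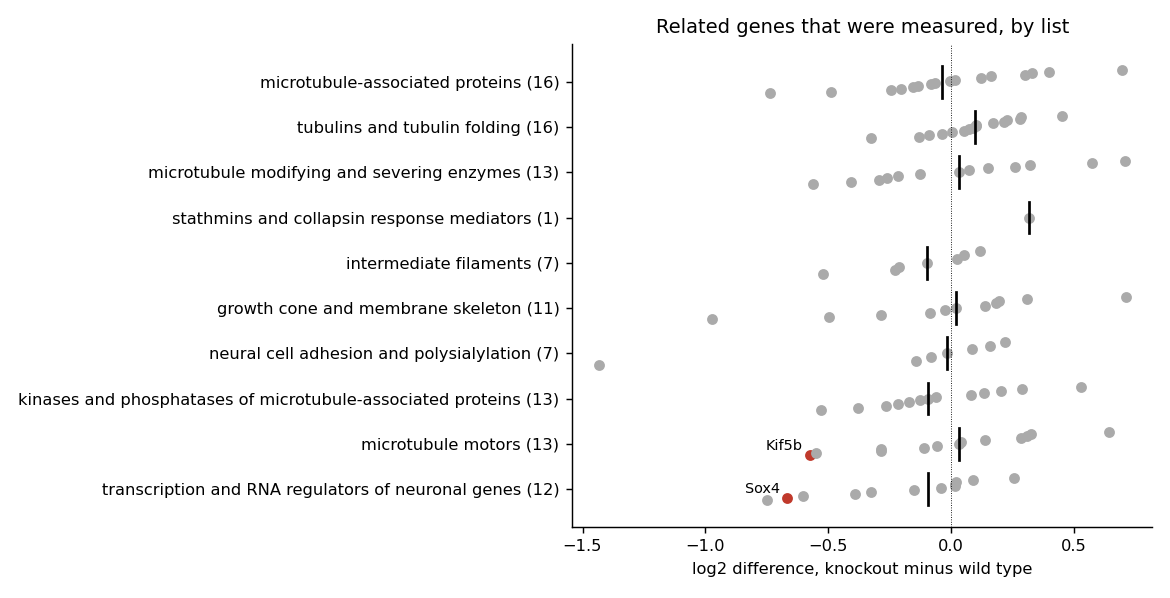
Each point is the log2 difference, knockout minus wild type, of 1 tested gene of a list, with the number of genes in parentheses, the list's median as a black line, and genes past limma's adjusted p of 0.05 in red. Kif5b and Sox4 are the 2 red points, at -0.57 and -0.67, and 9 list medians lie between -0.10 and 0.10.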

How the data were processed

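Trizol-extracted total RNA of 12 samples, carrying the Cy3 dye per the labels' protocols, was read on 1-colour Agilent arrays. The authors deposited spot intensity on a linear scale, with yes-or-no flags as other columns: the file headers name Agilent Feature Extraction 10.1.1.1 and the submitters' processing notes version 10.7. The deposited value table holds log2 values whose columns share one distribution, with a median of 3.06 in each, and served as an alternative.

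Uneven and outlier spots were left out, log2 processed signals were averaged over the spots of a probe, and the array's 75th percentile was subtracted. A probe counted as well above background where at least 0.5 of its spots were. No spot was saturated. Probes were named through the RefSeq table, 21109 by accession, 6684 by symbol and 424 by synonym, and 17381 kept their name. The probe with the highest mean stood for a gene, and features well above background on at least 5 of 12 arrays were tested with limma 3.58.1 in R 4.3.3 (lmFit, eBayes, no covariate, Benjamini-Hochberg, threshold 0.05). Standard errors of a gene's further probes come from a fit of every probe. The code was tested on simulated data. The 12 arrays lay on 3 slides, each with both genotypes, and slide 3 was scanned on another day. Slides 1 and 3 held 2 arrays of each genotype. Slide 2 held 3 knockout arrays (KO 1 to KO 3) and 1 wild-type array (WT 5).

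The 10 genes, the lists and the tests were chosen with earlier results of these data known. Named beyond the 10 genes are the called genes of each list (up to 4), or the one with the smallest p where none passed, the 5 genes most like Map1b by Pearson r, and Vdac1. The alternatives were normexp with an offset of 50, quantile normalization, the deposited table, other filters, every probe, slide, sample numbers and leaving out each array. The median over spots, and the 8 arrays of the replicate block without it, were added after the data were seen.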

Additional observations from a re-analysis of the deposited data

Results flagged for a closer look

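Of 36 groups of values checked for an array far from the others, 2 held one, and chance marks about 1 in 20 groups. In both it was WT 3. At the Mapt probe at base 5062 WT 3 stood at -4.43, where the nearest other wild-type array stood at -2.75, and it was not well above background there. For Dpysl2, a collapsin response mediator, WT 3 stood at 1.16 and the nearest other wild-type array at 0.46. Among the knockout arrays, Dpysl2 was 0.96 to 1.1 in KO 1 to KO 4 and 0.42 to 0.62 in KO 5 to KO 7.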

How the results depend on the processing

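The Map1b difference was negative under each of its 24 alternatives, from -2.14 within slide 2 to -0.99 within slide 1. It moved by more than the spread between arrays within slide 2 alone. There KO 1 to KO 3 stand against WT 5, so genotype cannot be told apart from low against high numbers. Without 1 array it ran from -1.57 to -1.27. Of all features, limma called 103 higher and 58 lower. It called 16 and 9 with normexp, 56 and 48 with quantile normalization, 53 and 49 in the deposited table, 0 and 0 without the filter on dim probes (1981 at unadjusted p under 0.05), 182 and 109 with probes above background on all arrays, 253 and 151 with slide as a block, 0 and 0 within slide 1 (1754 at unadjusted p under 0.05), 1062 and 924 within slide 2, 0 and 0 within slide 3 (783 at unadjusted p under 0.05), 446 and 303 with a block for sample numbers up to 4 or from 5, and 332 and 345 over numbers 5 to 8. Without 1 array it called 9 to 383 higher and 3 to 268 lower, most without WT 3. Members called lower were 1, namely Map1b, and 0 to 1 without 1 array. They were 0 without the filter and within slides 1 and 3 (2, 3 and 2 at unadjusted p under 0.05). With the number block and in numbers 5 to 8 alone they were 2 (with Ncam1). Genes of the 10 lists called lower were 2, and 0 to 5 without 1 array. They were 0 with normexp, without the filter and within slides 1 and 3 (6, 9, 6 and 3 at unadjusted p under 0.05). List genes called higher were 0, then 1 with the number block, 3 in numbers 5 to 8 alone and 0 to 1 without 1 array. Slide 2 holds 1 wild-type array, so calls within it are not given. The causes were not tested.

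Sample numbers 3, 5, 6 and 7 occur in both genotypes, and the deviations of same-numbered arrays correlated by 0.46, -0.11, 0.07 and 0.05. The labels do not say whether same-numbered cultures were handled together, and these values cannot settle it. With the replicate block over these 8 arrays limma called 0 features in either direction (1534 at unadjusted p under 0.05), 0 members lower (2) and 0 list genes lower (7), and without the block on the same 8 arrays also 0 (1424, 2 and 6), and the Map1b difference was -1.17 in both. Probes near background limit what can be said of Mapt and Tubb3.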

Other observations

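Vash1 and Cadm1 were among the related genes, not called in the fit over all features, that separated the knockout arrays by sample number. They were not alone. Nes ran from -0.86 to -0.35 in KO 1 to KO 4 and from -2.40 to -1.80 in KO 5 to KO 7. Nova1, well above background on 6 of 7 knockout arrays, ran from -4.61 to -4.24 and from -1.22 to -1.10. Vash1 stood at -0.47, -0.46, -0.39 and -0.43 in KO 1 to KO 4, at 0.35, 0.59 and 0.79 in KO 5 to KO 7 and between -0.90 and -0.42 in the wild type. With the numbers 1 to 4 and 5 to 8 as a block its log2 difference was 0.94 (limma adjusted p = 0.0235, where its alternatives ran from 0.00991 to 0.887). Cadm1 was lowest in KO 1 to KO 4, at -4.01, -3.67, -3.69 and -3.48, and stood at -2.33, -2.66 and -2.04 in KO 5 to KO 7 and between -2.27 and -1.11 in the wild type. With the same block its difference was -1.0 (limma adjusted p = 0.0132, the lowest of its alternatives, with 0.887 the highest). Since the split was placed after the arrays were seen, these values are descriptions.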
